A study of Mus musculus with 3 samples.

Results

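The genes described here are 10 chemokines of macrophages, Ccl2, Ccl3, Ccl4, Ccl6, Ccl7, Ccl9, Cxcl1, Cxcl2, Cxcl10 and Cxcl16, chosen by name. Every array probe that carries the name of a member was used, which gave 12 probes on 21 spots, out of 41174 probes for 27591 genes. Messenger RNA was measured in J774A.1 cells, an established mouse line with macrophage features. The cells had spent 6 h in RPMI medium supplemented with 10% fetal bovine serum (RPMI below), in Earle's Balanced Salt Solution (EBSS), which supplies glucose but no amino acids, or in EBSS to which 10 µM of SB202190, a p38 MAP kinase inhibitor, had been added. RNA of each condition was read on 2 of 3 two-colour Agilent arrays, in Cy5 on 1 array and in Cy3 on the other, so that the arrays closed a loop. Each condition is 1 sample of 1 cell line, and no p-value between conditions can be given.

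Chemokines are small secreted proteins that draw leukocytes along a concentration gradient by binding G protein-coupled receptors on them. Macrophages are a main source in infected or injured tissue, where ligands of CCR2 draw monocytes, ligands of CXCR2 draw neutrophils, and ligands of CXCR3 draw T cells, among other cells. Many chemokine genes are switched on by NF-κB, AP-1 and interferon-regulated factors, and some of their messenger RNAs are short-lived and are stabilised downstream of p38.

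The members lie on 2 chromosomes, in clusters and singly (probe positions on build mm8). On chromosome 11, Ccl2 (chr11:81853343-81853402) and Ccl7 (chr11:81863349-81863408) were 9.9 kb apart. Ccl9 (chr11:83390916-83390975), Ccl6 (chr11:83404690-83404749), Ccl3 (chr11:83464051-83464110) and Ccl4 (chr11:83480745-83480804) followed, with Ccl3 and Ccl4 16.6 kb apart, and the Cxcl16 probe spanned chr11:70272214-70274955. On chromosome 5, Cxcl1 (chr5:91968019-91968078) and Cxcl2 (chr5:91980708-91980767) were 12.6 kb apart, and Cxcl10 (chr5:93421955-93422014) lay 1441.2 kb farther on. Ccl7 had another probe at chr11:81863197-81863256 and Cxcl16 another at chr11:70270473-70270532. Exons and introns at these positions were not analysed here.

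RefSeq promoters (GRCm38.p6) were at hand for 6 members, but not for Ccl2, Ccl4, Ccl7 and Cxcl16. The 250 bases before the start of 4 of them are shown, 5′ to 3′ on the gene's strand, because these genes had contrasting values: Ccl3 and Cxcl2 were higher in EBSS, Cxcl10 was among the members lowest with the inhibitor, and Cxcl1 was not detected. Capitals mark matches, on either strand, to the κB motif, to the AP-1 motif TGANTCA or to the interferon-stimulated response element (ISRE, GAAA, any 2 bases, GAAA). They lie at chr11:83649379-83649628 (minus strand) for Ccl3, chr5:90890995-90891244 (plus) for Cxcl1, chr5:90903649-90903898 (plus) for Cxcl2 and chr5:92348890-92349139 (minus) for Cxcl10.
Ccl3: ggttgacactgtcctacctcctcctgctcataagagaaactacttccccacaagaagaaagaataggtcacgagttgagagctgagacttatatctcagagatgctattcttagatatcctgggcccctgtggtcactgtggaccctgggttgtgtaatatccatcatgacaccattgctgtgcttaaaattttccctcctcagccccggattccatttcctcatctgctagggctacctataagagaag
Cxcl1: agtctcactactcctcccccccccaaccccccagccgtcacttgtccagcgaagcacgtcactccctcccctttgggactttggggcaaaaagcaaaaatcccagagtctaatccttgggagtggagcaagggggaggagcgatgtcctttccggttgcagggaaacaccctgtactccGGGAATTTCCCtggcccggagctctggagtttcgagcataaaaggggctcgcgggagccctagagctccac
Cxcl2: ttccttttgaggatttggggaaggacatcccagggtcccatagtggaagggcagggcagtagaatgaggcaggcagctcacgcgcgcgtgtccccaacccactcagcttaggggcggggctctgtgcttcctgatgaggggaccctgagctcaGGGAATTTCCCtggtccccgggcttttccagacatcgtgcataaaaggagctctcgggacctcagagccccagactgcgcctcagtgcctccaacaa
Cxcl10: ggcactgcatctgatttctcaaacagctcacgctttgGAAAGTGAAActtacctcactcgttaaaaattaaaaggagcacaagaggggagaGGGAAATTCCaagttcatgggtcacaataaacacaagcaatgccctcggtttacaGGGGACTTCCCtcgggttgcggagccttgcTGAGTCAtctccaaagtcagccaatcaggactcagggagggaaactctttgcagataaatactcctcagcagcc

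Cxcl1 and Cxcl2 carried the same 10 letters GGGAATTTCC, at -71 to -62 and at -97 to -88 from the start. In Cxcl10, κB matches GGGAAATTCC at -159 to -150 and GGGACTTCCC at -103 to -94 stood with an AP-1 match TGAGTCA at -74 to -68 and an ISRE match GAAAGTGAAA at -213 to -204. In Ccl9, a κB match lay at -35 to -26 and an AP-1 match, TGAATCA, at -53 to -47. A κB match was thus present in 4 of 6 members, against 7.25% of 32851 promoters in the table, an AP-1 match in 2 of 6 against 6.75%, and an ISRE match in 1 of 6 against 2.98%. The CARE element TGATGNAA, to which factors of the amino acid response bind, was in 0 of 6 and in 3.45% of all. These windows in Ccl3 and Ccl6 held no match. A match is a description of letters, and other windows were not searched.

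Per channel, 40.1% to 49.9% of spots were well above background, and 0 were saturated. Added up around the loop, the 3 log2 ratios of a probe give 0 if there is no error, and this sum had an SD of 0.28 over 15490 probes above background everywhere. The median technical standard error (SE) of a log2 ratio was 0.11. This SE is that of genes of like intensity, leaves out the spread between cultures, and is limited by the number of arrays. All 14 macrophage markers on a list were above background. Of 36 markers of other cell types on the arrays, 23 were above background in no reading, 5 were measured, and 0 were counted, with ratios between -0.47 and 0.31. A gene was called measured in a comparison if both readings of its probe, in 1 or more of the compared conditions, were well above background. It was counted if, besides, the log2 ratio reached 1 in size and if each of 2 routes reached 0.5 with a common sign. The first route is the array on which both conditions were hybridised, and the second goes through the other 2 arrays. The 3 comparisons share samples, and the ratio of EBSS with SB202190 to RPMI is the sum of the other two. RPMI and EBSS differ in serum, amino acids and further ingredients at once, and the part of each cannot be told apart.

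**Figure D1:**
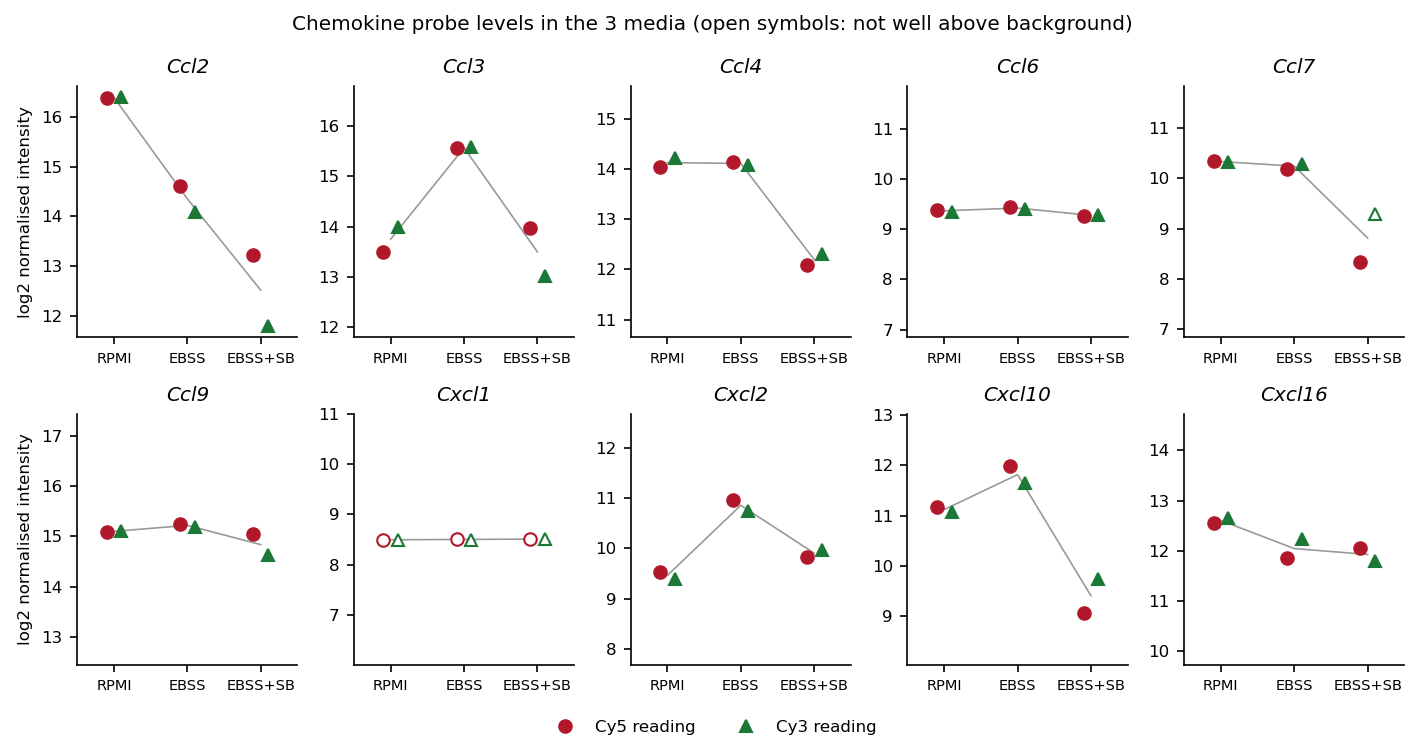
Log2 normalised intensity of the main probe of each chemokine (vertical axes, each at least 5 log2 units) in the 3 media, with the Cy5 reading as a circle, the Cy3 reading as a triangle and a line through their means; open symbols are not well above background. Ccl2 goes down over the 3 media, Ccl3 and Cxcl2 are highest in EBSS, Ccl4, Ccl7 and Cxcl10 are lowest in EBSS with SB202190, and Cxcl1 is open throughout.

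Ccl2 and Ccl7 encode ligands of CCR2, the receptor by which monocytes leave the bone marrow and enter tissue. Ccl2 had normalised log2 levels of 16.39 (Cy5) and 16.39 (Cy3) in RPMI, 14.62 and 14.09 in EBSS, and 13.23 and 11.80 in EBSS with SB202190. Its readings were thus highest in RPMI, intermediate in EBSS and lowest with the inhibitor, with no overlap. As these are readings of bulk RNA, fewer cells with the transcript and less of it per cell cannot be told apart. With SB202190 the log2 ratio to EBSS was -2.16 ± 0.16 (technical SE, as below), a 4.48-fold fall that was counted and was the 23rd lowest of 11692 genes. Against RPMI the value with SB202190 was -3.81 ± 0.16, a 14.0-fold fall and the lowest of 11863 measured genes. It was the 8th lowest with the scanner software's processed signals and the 5th lowest when the array with both conditions was used alone. The EBSS ratio to RPMI was -1.65 ± 0.16, but Ccl2 was not counted there, as the array that held both conditions gave -2.30 and the other 2 arrays -0.34.

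The routes through the loop disagreed more for Ccl2 than its SE says. The log2 ratio of Cy5 to Cy3 was 2.30 on array 1 (RPMI over EBSS), 2.82 on array 2 (EBSS over EBSS with SB202190) and -3.16 on array 3 (EBSS with SB202190 over RPMI), which sum to 1.96. Of 15490 probes, 2 had a larger sum in size. For SB202190 against EBSS the routes were -2.82 and -0.86, and against RPMI -3.16 and -5.11, so the size was not settled. With other normalisations the sign of a route was not settled either. The path through the other 2 arrays became 0.44 for SB202190 against EBSS with equal spread between arrays (direct -4.12). For EBSS against RPMI it became 2.23 with median centring and 2.11 with equal spread. Against RPMI both routes stayed negative for EBSS with SB202190 in the 6 normalisations run. The probe stands on 10 spots per array, and these agreed closely: the SD of the ratio over the 10 spots was 0.06, 0.05 and 0.04. Before normalisation, mean spot intensity in RPMI ran from 101073 to 142754 in Cy5 and from 62411 to 87325 in Cy3. In EBSS it ran from 22496 to 34520 in Cy5 and from 10789 to 14077 in Cy3, and with SB202190 from 9850 to 14120 in Cy5 and from 2140 to 3429 in Cy3. The spots of 1 array thus share what separates the routes, and its cause was not tested.

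**Figure D2:**
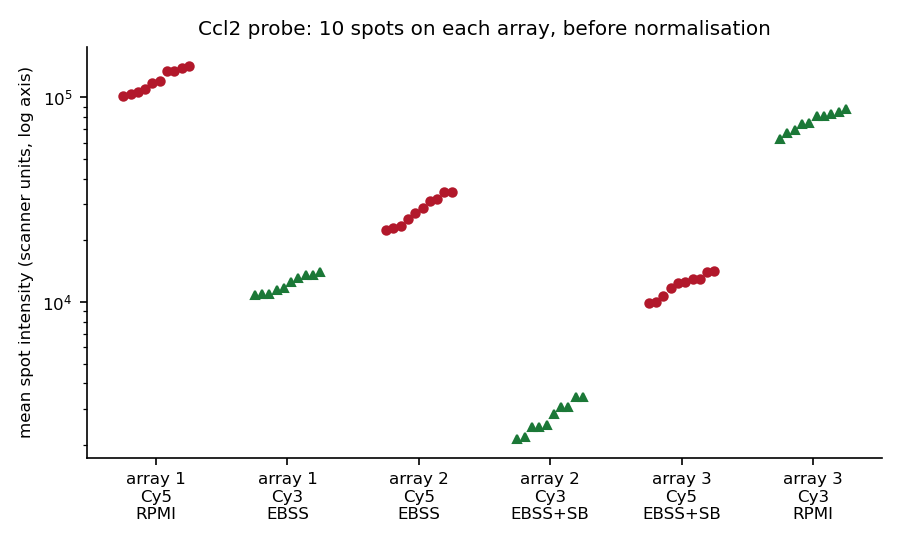
Mean intensity of the 10 Ccl2 spots in each channel of each array before normalisation (log axis, scanner units; circles Cy5, triangles Cy3), sorted within a channel. Spots within a channel stay close together, and with SB202190 the Cy5 spots (9850 to 14120) lie above the Cy3 spots (2140 to 3429).

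Ccl7, whose product also draws monocytes through CCR2, had log2 levels of 10.34 and 10.33 in RPMI, 10.19 and 10.29 in EBSS, and 8.34 and 9.29 with SB202190. Levels in RPMI and EBSS were close, those with SB202190 were lower in both dyes, and the Cy3 reading with SB202190 was not well above background, so that 1 of 2 arrays measured it there. Ccl7 was counted as lower with SB202190, with a log2 ratio of -1.25 ± 0.11 against EBSS and of -1.65 ± 0.11 against RPMI. The size depended on how the dim readings were treated: these values were -4.03 and -4.12 with the processed signals and the authors' deposited table, and -2.04 and -2.36 without background correction. Its other probe was counted in the same comparisons, at -1.09 and -1.33. Against EBSS the routes were -0.90 and -1.95, so when the array with both conditions was used alone Ccl7 was not counted. Against RPMI they were -1.99 and -0.95, and on the other 2 arrays alone it was not counted. The sum around the loop was -1.04, opposite in sign to that of Ccl2. Of the 15490 probes above background everywhere, 67 had a larger sum in size, so the routes disagreed more for Ccl7 too than its SE says. In EBSS against RPMI the value was -0.39 ± 0.11 and not counted, with routes of -0.05 and -1.09.

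Ccl3 and Ccl4 encode the inflammatory proteins MIP-1α and MIP-1β, which draw several kinds of leukocyte. Ccl3 had log2 levels of 13.50 and 14.00 in RPMI, 15.56 and 15.58 in EBSS, and 13.97 and 13.02 with SB202190. It was highest in EBSS in both dyes, and its readings in RPMI and with SB202190 overlapped. Ccl3 rose in EBSS by 2.22 ± 0.16 (4.66-fold), the 46th highest of 11872 measured genes, with routes of 2.08 and 2.51. With SB202190 its log2 ratio to EBSS was -2.40 ± 0.16, a 5.26-fold fall and the 14th lowest of 11692, with routes of -2.54 and -2.11. Between EBSS with SB202190 and RPMI the ratio was -0.17 ± 0.16. Ccl3 was counted in both of the first comparisons under every alternative run.

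Ccl4 had log2 levels of 14.04 and 14.21 in RPMI, 14.13 and 14.09 in EBSS, and 12.09 and 12.30 with SB202190. RPMI and EBSS overlapped, and the inhibitor readings lay below both. The EBSS ratio to RPMI was -0.07 ± 0.14, and its sign depended on the setting. With SB202190 Ccl4 fell by 1.94 ± 0.14 against EBSS (3.85-fold, routes -1.83 and -2.17) and by 2.01 ± 0.14 against RPMI (4.03-fold, routes -2.12 and -1.79). These adjacent genes differed in EBSS against RPMI by 2.29 ± 0.21 (Ccl3 minus Ccl4). For SB202190 against EBSS they differed by -0.45 ± 0.21, about the size by which their routes differed.

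Ccl6 and Ccl9 encode ligands of CCR1 that rodents produce in myeloid cells. Ccl6 had log2 levels of 9.38 and 9.35 in RPMI, 9.44 and 9.40 in EBSS, and 9.26 and 9.29 with SB202190. All 6 readings lay between 9.26 and 9.44, and the ratios were 0.03 in EBSS against RPMI, -0.14 with SB202190 against EBSS and -0.10 against RPMI, each ± 0.11. Ccl9 had log2 levels of 15.10 and 15.10 in RPMI, 15.25 and 15.19 in EBSS, and 15.04 and 14.63 with SB202190. Its ratios were 0.25, -0.46 and -0.22, each ± 0.22, and none was counted. Both genes lie between Ccl2 and Ccl3 on chromosome 11, and the difference between them was within its error for EBSS against RPMI (0.21 ± 0.25) and for SB202190 against RPMI (-0.11 ± 0.25). For SB202190 against EBSS it was -0.33 ± 0.25 (Ccl9 minus Ccl6).

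Cxcl1 and Cxcl2 encode neutrophil attractants that act on CXCR2. Cxcl2 had log2 levels of 9.53 and 9.40 in RPMI, 10.96 and 10.75 in EBSS, and 9.83 and 9.97 with SB202190. It was highest in EBSS and lowest in RPMI, with no overlap. Cxcl2 rose in EBSS by 1.29 ± 0.11 (2.45-fold, routes 1.23 and 1.42), and every alternative run counted it. With SB202190 the ratio to EBSS was -0.92 ± 0.11 (1.89-fold lower, routes -0.99 and -0.79), short of the size required. With the processed signals it was -1.33 and counted. Against RPMI the ratio was 0.37 ± 0.11. Cxcl1 was well above background in 0 of 6 readings, so no ratio of it is interpreted, although its promoter above carries the same κB letters as that of Cxcl2.

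Cxcl10 encodes IP-10, an interferon-induced ligand of CXCR3 on activated T cells and NK cells. It had log2 levels of 11.18 and 11.07 in RPMI, 11.99 and 11.64 in EBSS, and 9.07 and 9.75 with SB202190. The order was EBSS, then RPMI, then EBSS with SB202190, with no overlap of readings. Its EBSS ratio to RPMI was 0.39 ± 0.11, short of the size required. With SB202190 Cxcl10 fell by 2.32 ± 0.11 against EBSS (4.99-fold, the 18th lowest of 11692 genes), with routes of -2.24 and -2.47. Against RPMI it fell by 1.93 ± 0.11 (3.80-fold). Before normalisation the Cxcl10 spot with SB202190 read 402 in Cy5 and 424 in Cy3, and the size of the fall depended on the processing. Against EBSS and RPMI the ratios were -3.66 and -3.03 with the processed signals, and -2.95 and -2.41 without background correction.

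Cxcl16 encodes a transmembrane chemokine that binds CXCR6 and also acts as a scavenger receptor for oxidised lipoprotein. Its brighter probe had log2 levels of 12.55 and 12.66 in RPMI, 11.86 and 12.23 in EBSS, and 12.05 and 11.80 with SB202190. RPMI was highest, and the other two media overlapped. The ratios were -0.39, -0.14 and -0.53, each ± 0.12, and none was counted. The other probe read 11.83 and 11.90, 10.94 and 10.86, and 10.57 and 10.54 in the same order, with ratios of -0.96, -0.38 and -1.34, each ± 0.11. For SB202190 against RPMI this probe passed the counting rule and the brighter one did not, so the probes disagree on size and share the direction.

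**Figure D3:**
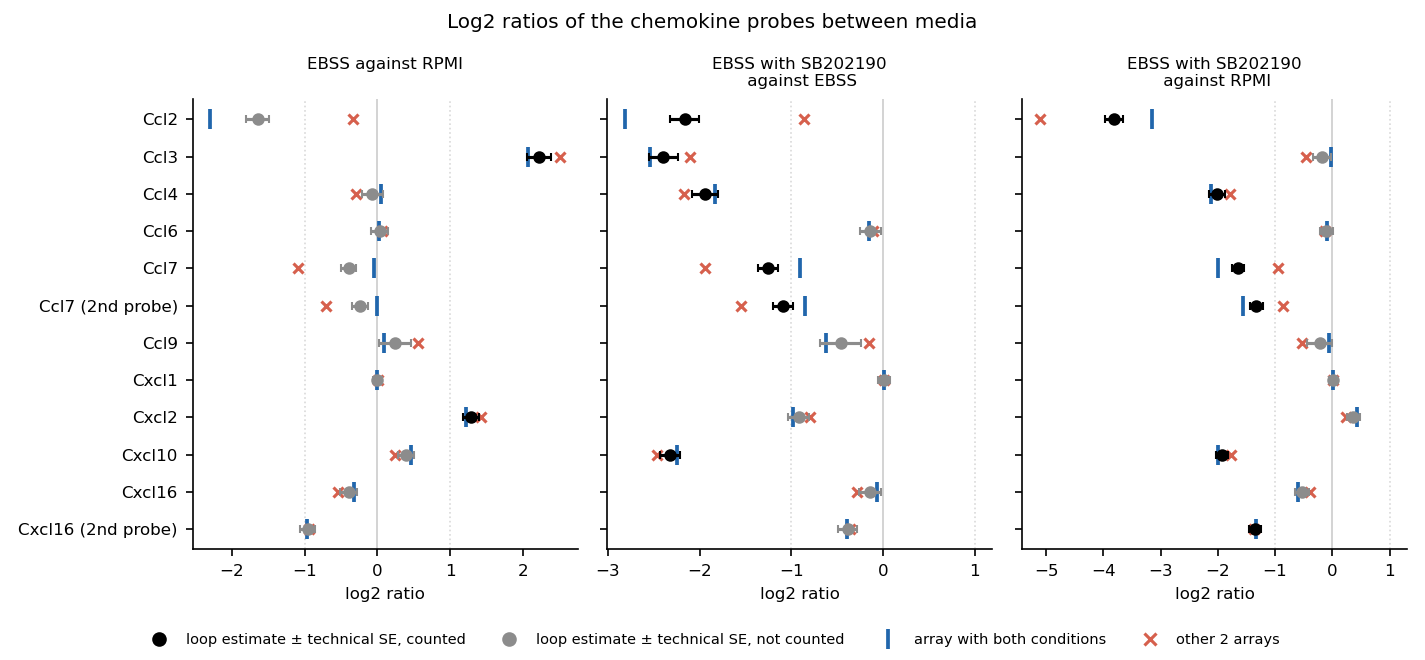
Log2 ratio of each chemokine probe (rows) in the 3 comparisons, with the loop estimate ± technical SE as a point (black where counted), the array that held both conditions as a bar and the path through the other 2 arrays as a cross; dotted lines mark a log2 ratio of 1 in either direction. The bars and crosses of Ccl2 and Ccl7 lie far apart, while those of Ccl3, Ccl4, Cxcl2 and Cxcl10 lie near the estimate.

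Of the 10 members 9 were measured in each comparison, Ccl7 in those with SB202190 through the other condition, in which it is brighter. When EBSS was set against RPMI, 2 members (Ccl3 and Cxcl2) were counted as higher and 0 as lower. Of all measured genes 4.48% were counted as higher, 2.82% as lower and 7.30% in either direction. Their median log2 ratio was 0.03, beside 0.00 over 11872 genes, and their ratios ran from -1.65 to 2.22. When SB202190 was present in EBSS, 5 members (Ccl2, Ccl3, Ccl4, Ccl7 and Cxcl10) were counted as lower and 0 as higher. Of 11692 genes 2.93% were counted as lower, 0.889% as higher and 3.81% in either direction. The median of the members was -1.25 beside 0.00 over all genes, and 7 of 9 lay below the lower quartile of all genes, -0.20. Against RPMI, 4 members (Ccl2, Ccl4, Ccl7 and Cxcl10) were counted as lower with SB202190 and 0 as higher. Of 11863 genes 2.43% were counted as lower, 1.47% as higher and 3.89% in either direction. The median was -0.53 beside 0.01. Without loess, by median centring, 5 members were counted as higher in EBSS against RPMI, but the median of all genes then moved to 0.81. Relative to that shift Ccl4, Ccl9 and Cxcl10, the members added, stood at 0.37, 0.84 and 0.53.

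**Figure D4:**
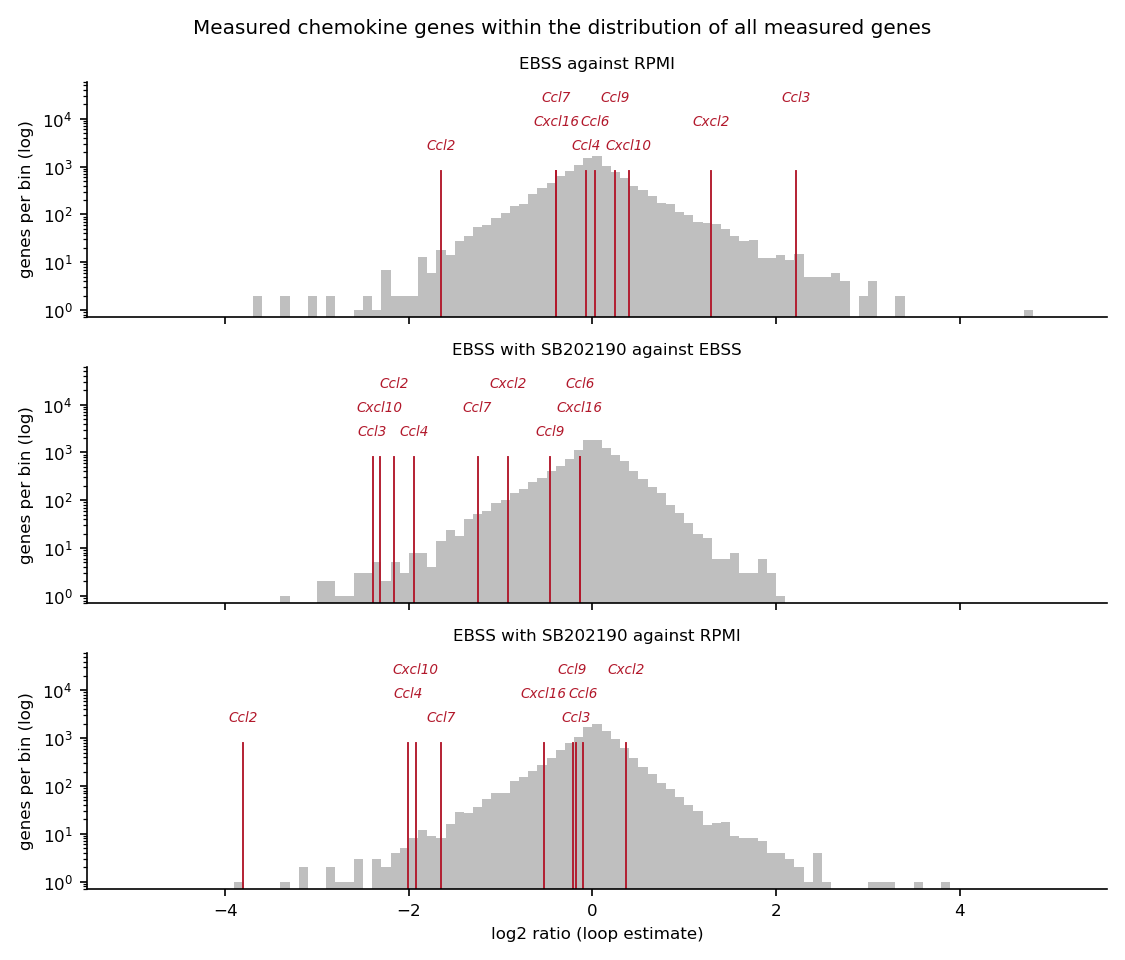
Histogram of the log2 ratios of all measured genes (grey, log vertical axis, bins of 0.1 log2 units) in the 3 comparisons, with the 9 measured chemokines as vertical lines. For SB202190 against EBSS all 9 lines lie below 0, and Ccl2 is at the left edge of all genes against RPMI.

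Of 28 other chemokine ligands on a list, 26 were on the arrays, 9 were above background in any reading and 4 or 5 were measured, depending on the comparison. Ccl12, another ligand of CCR2 and a relative of Ccl2, fell with SB202190 by 1.08 ± 0.10 against EBSS and by 1.88 ± 0.10 against RPMI, and stood at -0.80 in EBSS against RPMI. No other listed ligand was counted. Ccl5, also known as RANTES, had ratios of 0.30, -0.90 and -0.60 in the 3 comparisons in the order used above, and Pf4, a platelet and macrophage chemokine, had -0.93, 0.19 and -0.74. Ccl25, a ligand known from thymus and gut, had 0.32, 0.44 and 0.76. The list's median was -0.33, -0.36 and -0.60.

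The receptors through which the members act were mostly dim in these cells. Of 23 receptors on the list, 11 were above background in any reading, and Ccr1, Cxcr2 and Cxcr6 were not above background in any of 6. Ccr2 was above background in 6 of 6 readings, with ratios of -0.07, 0.01 and -0.06 in the 3 comparisons. Of 9 receptors measured for EBSS against RPMI 1 was higher, Ccrl2, an atypical receptor that presents chemerin, at 1.10 ± 0.10 (other probe 1.04). In the same comparison 1 was lower, the fractalkine receptor Cx3cr1, at -1.79 ± 0.11. Its probe was not well above background in EBSS, where it was at least 3.46-fold below RPMI, and another, dimmer probe of it gave -0.26. For SB202190 against EBSS 0 of 6 were counted. Against RPMI 2 of 10 were lower, Cx3cr1 at -1.74, above background in 1 of 2 readings with SB202190 and at -0.33 on its dimmer probe, and Cxcr3, the receptor for Cxcl10, at -1.16 ± 0.10.

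Of 17 genes of signalling below chemokine receptors, all measured, 2 were counted in EBSS against RPMI and the same 2 with SB202190 against EBSS. Gng2, a G protein γ subunit, rose in EBSS by 1.27 ± 0.14 and fell with SB202190 by 1.10 (other probe 1.30 and -1.13). Arrb2, a β-arrestin that desensitises receptors, fell in EBSS by 1.27 ± 0.13 and rose with SB202190 by 1.09. Against RPMI their ratios with SB202190 were 0.17 and -0.18, and 0 of 17 were counted. Of the proteases that cleave or shed chemokines, 8, 7 and 8 of 12 were measured in the 3 comparisons. Only Furin, a proprotein convertase, was counted among them, at -1.13 ± 0.12 with SB202190 against EBSS, and its other probe was above background in 0 of 6 readings. Adam10 and Adam17, which shed membrane proteins including Cxcl16, had ratios of -0.06 and 0.89 in EBSS against RPMI, and of -0.03 and -0.49 with SB202190 against EBSS.

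Of 26 transcription factors and inhibitors that act at chemokine genes, 25 were measured. In EBSS against RPMI 3 were higher and 5 lower. The largest in size were Fos (-2.27 ± 0.11) of AP-1, Atf3 (2.18 ± 0.16), a stress-induced factor, Irf5 (-2.14 ± 0.12), an interferon regulatory factor of myeloid cells, the NF-κB cofactor Bcl3 (-1.82 ± 0.11), the inhibitor Nfkbib (1.43 ± 0.12) and Cebpd (-1.29 ± 0.13). Adding SB202190 to EBSS left 4 of them higher: the NF-κB inhibitors or cofactors Nfkbiz (1.81 ± 0.10) and Nfkbia (1.42 ± 0.16), and Irf3 (1.15) and Irf1 (1.06), whose other probes gave 0.16 and 0.27. The 2 that were lower were the AP-1 member Junb (-1.68 ± 0.16) and Egr1 (-1.21 ± 0.11). Against RPMI 3 were higher, led by Nfkbiz at 2.43, and 6 lower, among them Fos at -2.78, Irf5 at -2.19, Junb at -2.16, Cebpd at -2.03 and Bcl3 at -2.01. Fos and Egr1 were well above background in 1 of 2 readings with SB202190, so their sizes there are uncertain. Another probe of Junb gave -1.58 against EBSS. The list thus held members of the same families in both directions, and its medians were -0.07, -0.15 and 0.05. Among the 14 macrophage markers, 2 were lower with SB202190, the endotoxin co-receptor Cd14 (-1.56 against EBSS and -1.94 against RPMI) and the Fc receptor Fcgr1 (-1.31 and -1.38). Another probe of Fcgr1 gave -0.84 and -0.97, short of the size required. Their part in the chemokine values was not tested.

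The 3 members with the largest ratios in EBSS against RPMI and with SB202190 against EBSS were set against 10827 genes with a symbol. Each of these genes was measured in either or both of the comparisons, and the distance was Euclidean in these 2 log2 ratios. Nearest to Ccl3 were Plk2, a stress-induced kinase, at a distance of 0.03, Klf4, a transcription factor, at 0.05, and Bcl2a1b, a survival gene of the Bcl2 family, at 0.07. Nearest to Cxcl10 were Plau (0.13), which encodes urokinase, Metrnl (0.27), and Plaur (0.30), which encodes the urokinase receptor. Among the genes near Ccl2, Cdc5l was at 0.98 and Zfp710 at 1.04.

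**Figure D5:**
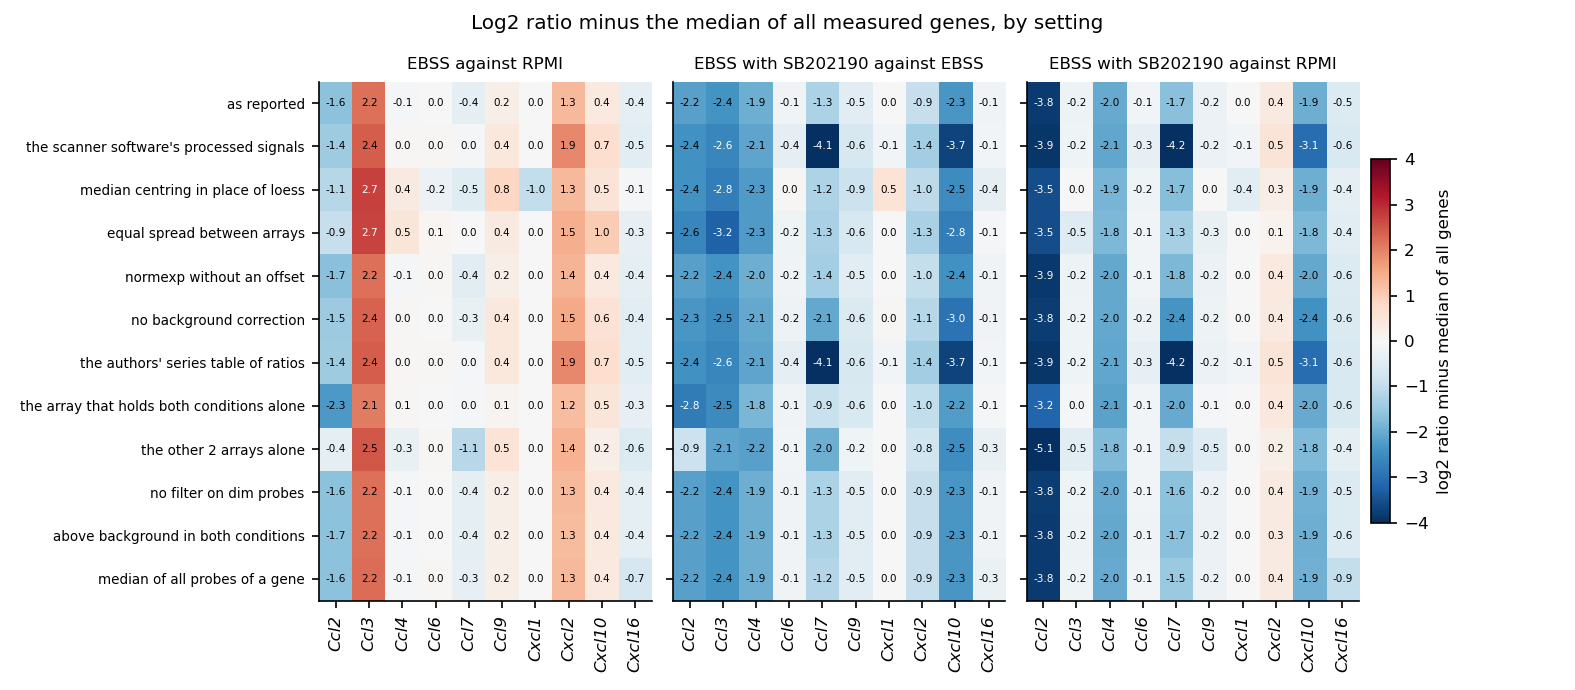
Log2 ratio of each chemokine minus the median of all measured genes (colour and printed value) for each setting (rows) in the 3 comparisons; values past 4 in size share the darkest colour. Ccl3 is above 2 in every row for EBSS against RPMI and below -2 for SB202190 against EBSS, while Ccl7 and Cxcl10 are lower in both SB202190 comparisons with the processed signals and the authors' table than in the other rows.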

How the data were processed

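The 3 deposited scanner files were written by Agilent Feature Extraction, version 9.5.3.1 in the submitters' processing notes and in the headers. The deposited spot intensities (mean signal and median local background in each dye) are not normalized, per the file headers. The processed intensities and their log10 ratio are background-subtracted and dye-normalized by that software, per the file headers. Set against the scanner values, the ratios that the authors deposited for the series were log2 values of processed Cy5 over processed Cy3 intensity, averaged over spots and not centred, for 41052 to 41078 of 41174 probes per array within 1e-06, with differences of up to 0.96 among the others (medians -0.0854, -0.0766 and -0.166). Deposited marks of other kinds gave well above background, saturated, outlier and control spots, per the file headers. Per the labels, Cy5 and Cy3 were RPMI and EBSS on array 1, EBSS and EBSS with SB202190 on array 2, and EBSS with SB202190 and RPMI on array 3. Media are those of the source names, since the design text also allows RPMI in each. A solvent control and the number of extracts per condition are not given in the sources used here.

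Mean intensities were corrected with normexp (offset 50) and normalized by loess, with control spots (1639 of 45018) at weight 0, in limma 3.58.1 (R 4.3.3). Between 136 and 178 outlier spots per array were dropped and spots of 1 probe averaged. Levels are channel intensities after Aquantile normalization between arrays, and ratios come from within arrays, so level differences need not equal them. The ratio was the least-squares value over the loop, in which a constant dye offset of a probe cancels, weighting the array with both conditions over the other 2 arrays by 2 to 1. The technical SE was taken from the robust spread of the sum around the loop among probes of like intensity (30 bins). The least-squares ratio and the counting rule were run on simulated ratios with noise drawn from this SE, which does not test the SE itself. A gene was represented by its brightest probe. Other probes are given for all members and for the counted list genes that are named. Of 41174 probes, 24496 were named by accession, 6234 by symbol and 2386 by synonym, and 8058 kept the name in the file, while 49 were left out. Python 3.11.15, numpy 2.4.6, pandas 2.3.3 and matplotlib 3.10.9 were used.

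The members, lists, rules and 12 alternatives were chosen with earlier results of these data known. Named were all members, up to 6 counted genes per list and comparison by size, and the 3 nearest genes to each of the 3 members with the largest ratios, of which some are not reported here. Members' own receptors, Ccl5, Pf4, Ccl25, Adam10 and Adam17 were added as examples after their values were seen. Mouse promoters come from RefSeq (GRCm38.p6).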

Additional observations from a re-analysis of the deposited data

How the results depend on the processing

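No result reversed in a counted value. In EBSS against RPMI 2 or 3 chemokines were counted, except with median centring. That setting counted 5, all higher, with 36.0% of all genes counted in either direction. In the other settings this share ran from 3.15% (no filter on dim probes) to 24.3% (log2 ratios of 0.5, and 0.25 per route, required). With the processed signals 17.3% of all genes were counted, beside 2 members. With SB202190, 4 to 6 members were counted against EBSS and 3 to 5 against RPMI. Where 6 were counted, the share was 6.26% to 18.1%, beside 3.81% in the main setting. Against RPMI 5 were counted only with the smaller size required, where the share was 16.2%, beside 3.89% in the main setting. The median log2 ratio of the members, which has no error of its own here, moved by more than 0.12, the median technical SE of single members, in several settings. A changed filter on dim probes altered only which members entered the median, not their ratios. In the other settings the cause was not tested. In EBSS against RPMI the members' median was 1.18 with median centring (all genes 0.81) and 0.35 with equal spread between arrays. It was 0.37 with median centring re-centred on all measured genes, an alternative chosen after seeing the data. With SB202190 against EBSS it was -2.05 with the processed signals and with the authors' table, and -2.04 without background correction. It was -1.69 with median centring, where the median of all genes was -0.45, and -1.24 re-centred. On the array with both conditions alone it was -0.99, and on the other 2 arrays alone -0.86. It was -1.09 without a filter on dim probes and -1.43 when both conditions had to be above background. Against RPMI it was -0.065 with median centring (all genes 0.34) and -0.40 re-centred. It was -0.37 without the filter, -0.37 with both conditions above background and -0.94 with the median of all probes of a gene.

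Ccl3 and Cxcl2 in EBSS against RPMI were counted in 12 of 12 alternatives. So were Ccl3, Ccl4 and Cxcl10 with SB202190 against EBSS, and Ccl2, Ccl4 and Cxcl10 with SB202190 against RPMI. Several of these alternatives could not differ. Each of these genes has a single probe, above background in every reading. Changing the filter on dim probes or taking the median of all probes thus left the values unchanged. The processed signals and the authors' table gave the same values. With SB202190 against EBSS, Ccl2 was not counted with median centring (-2.88), re-centred (-2.43), with equal spread (-2.60) or on the other 2 arrays alone (-0.86). In EBSS against RPMI its ratio ranged from -2.30 to -0.33. Ccl7 was not counted in either SB202190 comparison when both conditions had to be above background. Cxcl2 with SB202190 against EBSS was counted as lower with the processed signals (-1.33), median centring (-1.48), equal spread (-1.31) and no background correction (-1.13). Re-centred on all measured genes, its value with median centring was -1.03 and not counted. No paired analysis was possible because the labels give no replicate numbers and each condition is 1 sample, for which reason no replicate could be left out. Signal over background limits Cxcl1 in all media and Ccl7 with SB202190. Cxcl10 with SB202190 was above background in both dyes, but the size of its fall depended on the processing.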
